A study of Mus musculus with 6 samples.

Results

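The 10 genes described here form the core of the unfolded protein response of the endoplasmic reticulum (ER). They are the chaperone and folding genes Hspa5, Hsp90b1, Calr and Pdia3, the stress sensor genes Atf6, Ern1 and Eif2ak3, and the transcription factor genes Xbp1, Atf4 and Ddit3. They were chosen by name, with earlier results of these data known, and all 10 were among the 15553 genes of the deposited table. RNA came from hematopoietic stem and progenitor cells sorted from the bone marrow of C57BL/6 mice aged 6 to 8 weeks. The study asked what loss of YY1, a zinc-finger transcription factor that acts with Polycomb proteins, does to the resting state of these cells. The 3 wild-type libraries carried Mx1-Cre and the 3 knockout libraries Yy1f/f;Mx1-Cre, so both genotypes carried the recombinase. Mx1-Cre is driven by an interferon-inducible promoter that is active in many cell types, and the labels do not name an agent that induced it. They also do not say whether each library came from its own mouse, so p-values measure the spread between libraries, which may be technical. The source labels name a CD150+ gate, while the protocol names a CD150+ and a CD150- gate.

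When unfolded proteins build up in the ER, 3 sensors in its membrane respond. PERK (Eif2ak3) phosphorylates the initiation factor eIF2alpha, which slows translation in general but favours that of ATF4, and ATF4 in turn activates Ddit3 (CHOP). IRE1 (Ern1) splices the Xbp1 messenger RNA into a form that encodes an active factor, and ATF6 is cut in the Golgi to release a factor that activates ER chaperone genes. In the blood system the response is known for its part in the survival or removal of stem cells under protein stress and for its role in antibody-secreting plasma cells. Splicing of Xbp1, translation of ATF4 and cleavage of ATF6 are not seen in gene-level values.

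The promoters of the folding genes are shown because ER chaperone genes are known targets of ATF6. Those of Hspa5, Hsp90b1 and Calr held the full element, and that of Pdia3 is shown beside them as one that did not. The classic ER stress response element is CCAAT, which NF-Y binds, and CCACG, which ATF6 binds, with any 9 bases between them. Of the 10 genes, 9 matched RefSeq promoter windows (GRCm38.p6), which span 250 bases before to 50 after a transcript start; Atf6 did not. The element was searched on both strands. In the windows below, 5′ to 3′ on the strand of the gene, capitals mark its fixed letters, and in Pdia3 those of the closest match, which lacks the last letter.
Hspa5, chr2:34771840-34772139, plus strand: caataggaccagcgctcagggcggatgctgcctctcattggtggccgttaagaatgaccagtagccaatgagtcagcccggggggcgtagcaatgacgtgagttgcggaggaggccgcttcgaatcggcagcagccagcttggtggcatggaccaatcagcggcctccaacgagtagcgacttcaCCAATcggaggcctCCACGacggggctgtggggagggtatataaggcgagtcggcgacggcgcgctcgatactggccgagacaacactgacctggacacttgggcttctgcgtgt
Hsp90b1, chr10:86705395-86705694, minus strand: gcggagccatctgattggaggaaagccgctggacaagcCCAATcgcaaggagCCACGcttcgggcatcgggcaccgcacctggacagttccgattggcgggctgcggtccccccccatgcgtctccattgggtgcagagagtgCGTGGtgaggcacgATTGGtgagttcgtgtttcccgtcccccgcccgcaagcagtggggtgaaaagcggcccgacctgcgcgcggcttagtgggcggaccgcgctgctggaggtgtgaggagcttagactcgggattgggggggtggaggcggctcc
Calr, chr8:84846882-84847181, minus strand: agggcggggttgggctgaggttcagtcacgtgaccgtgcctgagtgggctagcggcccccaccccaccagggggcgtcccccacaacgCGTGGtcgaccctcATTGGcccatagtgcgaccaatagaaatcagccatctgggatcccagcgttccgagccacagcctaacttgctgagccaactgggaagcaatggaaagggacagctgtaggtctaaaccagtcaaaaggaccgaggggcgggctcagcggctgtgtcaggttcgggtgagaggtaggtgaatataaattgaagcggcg
Pdia3, chr2:121413652-121413951, plus strand: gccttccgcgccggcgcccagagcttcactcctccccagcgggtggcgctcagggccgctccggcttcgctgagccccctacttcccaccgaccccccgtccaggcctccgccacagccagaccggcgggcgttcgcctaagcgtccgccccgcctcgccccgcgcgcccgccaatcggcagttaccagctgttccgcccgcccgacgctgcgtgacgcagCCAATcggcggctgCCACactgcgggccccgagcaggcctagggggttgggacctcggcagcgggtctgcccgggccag

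Hspa5 held 1 element at -65 to -47, Calr 1 at -162 to -144 and Hsp90b1 2, at -212 to -194 and -107 to -89, counted from the transcript start. The elements of Calr and the second of Hsp90b1 ran on the opposite strand. Of all 32851 windows of this length, 0.119% held the element. None of the windows of Pdia3, Ddit3, Atf4, Xbp1, Ern1 and Eif2ak3 held it. The shorter unfolded protein response element TGACGTGG (0.676% of windows), the C/EBP-ATF response element TGATGNAAT (0.965%) and the YY1 motif AAGATGGC (2.75%), searched on both strands, were in none of the 9 windows. Only these exact letters were searched, and bases outside the windows were not. The Hspa5 window holds tgacgtga, which differs from TGACGTGG in its last letter. A match is a description of these letters and not a measured binding site.

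**Figure D1:**
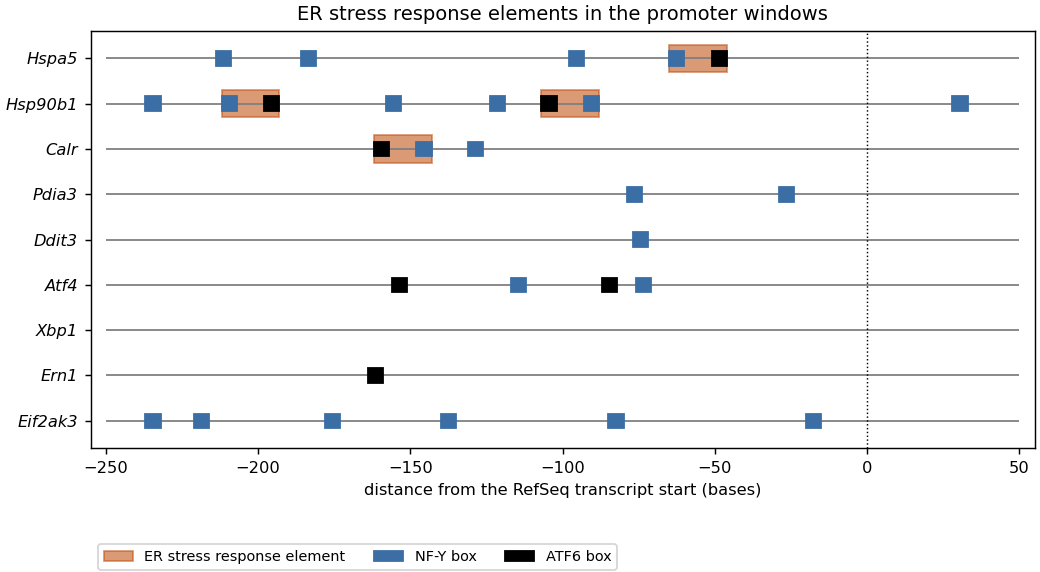
Positions of the ER stress response element (orange) and of its NF-Y (blue) and ATF6 (black) boxes, on either strand, in the promoter windows of 9 members; the x axis is the distance in bases from the RefSeq transcript start. The full element appears once in Hspa5 and Calr and at 2 places in Hsp90b1, while the other genes have separate boxes (up to 6 NF-Y boxes, in Eif2ak3) or, in Xbp1, none. Single boxes are common: the letters CCAAT are in 37.4% of all windows and CCACG in 32.8%.

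Reads in the listed genes numbered 15102982 to 18460012 per wild-type library and 19473175 to 21757039 per knockout library. Yy1 itself stood at 31.6, 42.3 and 52.1 RPKM (reads scaled to gene length and library size) for wild type, against 36.2, 16.6 and 28.5 RPKM for knockout. The library labelled Yy1 knockout replicate 1 thus lay within the wild-type range, and knockout below means the libraries so labelled. All 10 stem cell markers were listed, and their summed level was 559 to 627 RPKM in wild type and 394 to 431 RPKM in knockout. Of 14 plasma and B cell markers, 3 were listed (Cd79b, Sdc1 and Irf4), with a sum of 14.3 to 35.1 RPKM in wild type and 11.6 to 26.8 RPKM in knockout. Among all genes tested, 0% passed an adjusted p of 0.05 in limma, which was fitted to log2(RPKM + 0.5).

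The members covered a wide range of levels, in an order that followed their roles in part. Each value covers all annotated exons of the gene, untranslated regions included. Averaged over the 6 libraries, Calr stood highest at 208 RPKM, followed by Hspa5 at 106, Hsp90b1 at 99.9, Atf4 at 82.8, Pdia3 at 54.4 and Xbp1 at 31.5 RPKM. The sensors were low among the members, with Ern1 at 15.2, Atf6 at 6.10 and Eif2ak3 at 4.78 RPKM. Ddit3 stood among them at 10.4 RPKM. Calr was above 98.7% of all listed genes, Ern1 above 72.8%, Atf6 above 45.7% and Eif2ak3 above 39.0%. Hspa5 and Hsp90b1 could not be ordered, as each was the higher in 3 of the 6 libraries. In the other steps of the order the higher gene led in 5 or 6 of the 6 libraries.

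**Figure D2:**
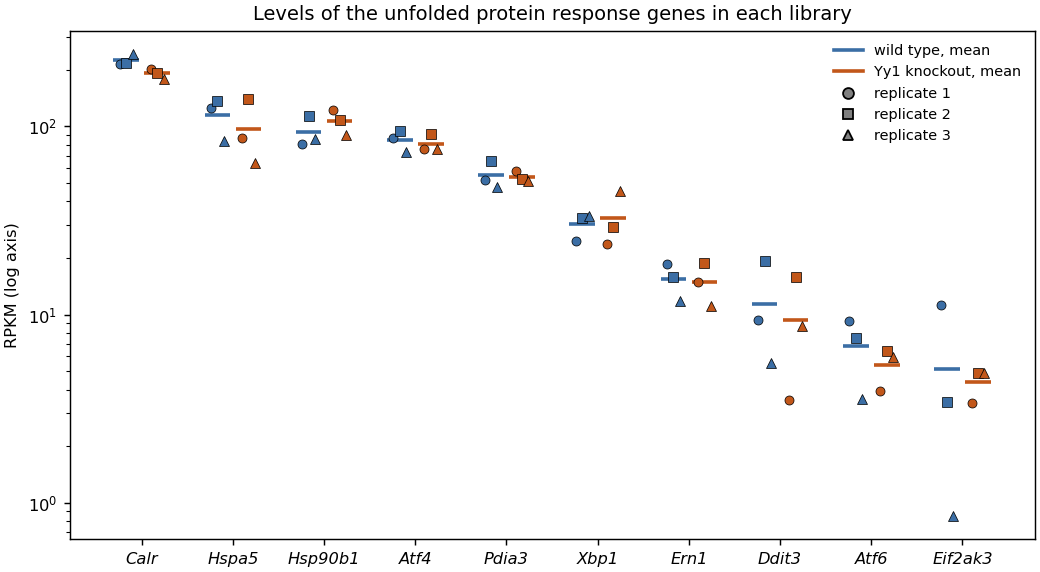
RPKM on a log axis for each member, ordered by mean level, with 1 point per library (shape gives the replicate number) and a bar at the mean of each genotype. Calr is the one gene whose wild-type and knockout points do not overlap, and Eif2ak3 and Ddit3 spread most widely.

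Calr encodes calreticulin, a lectin chaperone and calcium store of the ER lumen (ENSMUSG00000003814, chr8:84841850-84846934, minus strand). It stood at 216, 218 and 241 RPKM in wild type replicates 1 to 3, against 201, 193 and 179 RPKM in knockout replicates 1 to 3. Every knockout library was below every wild-type library, and Calr was the only member without overlap. Its mean went from 225 ± 14.1 to 191 ± 11.3 RPKM (SD over 3 libraries, as for all means below). The log2 fold change (knockout relative to wild type) was -0.24, with a 95% interval of -0.59 to 0.11, and the adjusted p in limma was 0.752. The difference therefore did not pass. Fits that dropped a single library gave log2 fold changes of -0.28 to -0.19. Their sign could not turn, because the genotypes do not overlap, so it adds no evidence for a difference. Calr was also the steadiest member: within genotypes, only 3.0% of the 500 genes nearest to it in level had a smaller SD. One member of 10 without overlap is 10%, and the genotypes did not overlap in 14.5% of all tested genes.

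Hspa5 encodes BiP, the Hsp70 chaperone of the ER that holds the sensors inactive (ENSMUSG00000026864, chr2:34771970-34777547, plus strand). Its level was 125, 137 and 84.1 RPKM for wild type, against 86.3, 141 and 63.5 RPKM for knockout. Replicate 2 was the highest library of each genotype, and replicate 3 the lowest. The means were 115 ± 27.6 and 96.8 ± 39.6 RPKM, with a log2 fold change of -0.30 and an interval of -1.04 to 0.45 (limma adjusted p = 0.854). Its within-genotype SD exceeded that of 82.0% of the 500 genes of like level. It rested on 5245 to 10402 reads per library.

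Hsp90b1 encodes GRP94, the Hsp90 of the ER (ENSMUSG00000020048, chr10:86690209-86705509, minus strand). It stood at 80.9, 113 and 86.1 RPKM for wild type, against 122, 108 and 90.0 RPKM for knockout. The genotypes overlapped, with means of 93.3 ± 17.2 and 107 ± 16.1 RPKM and a log2 fold change of 0.20 (interval -0.27 to 0.66, limma adjusted p = 0.845). Hsp90b1 thus had the opposite sign to Hspa5, though neither passed and the difference between the 2 genes was not tested. Pdia3 encodes ERp57, a disulfide isomerase that works with calreticulin (ENSMUSG00000027248, chr2:121413775-121438687, plus strand). Its level was 51.9, 65.5 and 47.5 RPKM for wild type, against 57.6, 52.8 and 51.3 RPKM for knockout. The knockout libraries lay within the wild-type range, at a log2 fold change of -0.02 with an interval of -0.44 to 0.41, or 0.736 to 1.33 times the wild-type level (limma adjusted p = 0.989).

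Of the sensors, Ern1 was the most abundant (ENSMUSG00000020715, chr11:106394650-106487852, minus strand). It stood at 18.5, 15.9 and 11.9 RPKM for wild type, against 14.9, 18.7 and 11.1 RPKM for knockout, with overlap. Its means were 15.4 ± 3.32 and 14.9 ± 3.83 RPKM and its log2 fold change -0.05 (interval -0.73 to 0.62, limma adjusted p = 0.976). Atf6 (ENSMUSG00000026663, chr1:170704674-170867771, minus strand) stood at 9.22, 7.54 and 3.57 RPKM for wild type, against 3.91, 6.41 and 5.93 RPKM for knockout. Wild type replicate 3 and knockout replicate 1 were the low libraries. The log2 fold change was -0.23 (interval -1.26 to 0.79, limma adjusted p = 0.925). It was -0.61 without wild type replicate 3 and 0.023 without wild type replicate 1, so its sign turned with a single library.

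Eif2ak3, the gene of PERK, varied most among the members (ENSMUSG00000031668, chr6:70844515-70905245, plus strand). Its level was 11.2, 3.42 and 0.853 RPKM in wild type, a 13.1-fold range, and 3.39, 4.90 and 4.92 RPKM in knockout, a 1.45-fold range. These values rested on 871, 332 and 76 wild-type reads and on 356, 517 and 579 knockout reads. The knockout libraries all lay inside the wild-type range. The mean was lower in knockout, at 4.41 ± 0.875 RPKM against 5.15 ± 5.38 RPKM in wild type, while on the log2 scale the knockout stood higher. The log2 fold change was 0.29 with an interval of -1.47 to 2.06 (limma adjusted p = 0.948). It was 1.07 without wild type replicate 1 and -0.48 without wild type replicate 3, so its sign changed with the scale and with a single library.

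Among the transcription factors, Xbp1 (ENSMUSG00000020484, chr11:5520659-5525893, plus strand) stood at 24.6, 32.8 and 33.5 RPKM for wild type, against 23.7, 29.1 and 45.5 RPKM for knockout. Knockout replicate 3 held the highest value and replicate 1 of each genotype the lowest. The log2 fold change was 0.07 (interval -0.58 to 0.72, limma adjusted p = 0.966), and -0.19 without knockout replicate 3. Atf4 (ENSMUSG00000042406, chr15:80255184-80257541, plus strand) stood at 86.9, 94.4 and 73.1 RPKM for wild type, against 75.4, 91.2 and 75.6 RPKM for knockout. The genotypes overlapped almost fully, with means of 84.8 ± 10.8 and 80.7 ± 9.06 RPKM. Its log2 fold change was -0.07 with an interval of -0.48 to 0.34 (limma adjusted p = 0.948).

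Ddit3 encodes CHOP, a factor linked to cell death under lasting ER stress (ENSMUSG00000025408, chr10:127290774-127296288, plus strand). It stood at 9.31, 19.2 and 5.53 RPKM for wild type, against 3.52, 15.9 and 8.67 RPKM for knockout. Behind these values were 206, 531 and 140 wild-type reads and 105, 476 and 290 knockout reads. Replicate 2 was the highest library of each genotype, and the highest library exceeded the lowest 3.48-fold in wild type and 4.51-fold in knockout. The log2 fold change was -0.32 with an interval of -1.75 to 1.11 (limma adjusted p = 0.929). Leaving out wild type replicate 2 gave 0.14, and leaving out knockout replicate 1 gave 0.22. Within genotypes, the SD of Ddit3 exceeded that of 90.2% of the 500 genes of like level. Exons of Ddit3 overlap those of Mars on the other strand and of a second annotated Ddit3 gene, and without a known strand setting such reads cannot be told apart. Parts of Hsp90b1, Pdia3 and Eif2ak3 are likewise covered by exons of other annotated genes.

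In limma, 0 of the 10 members passed an adjusted p of 0.05, and 0 had an unadjusted p under 0.05, against 7.79% of all tested genes. A limma-voom fit of recovered reads also called 0 members, against 0.061% of its genes. In the authors' deposited table, 0 members had an adjusted p under 0.05, where 0.154% of all genes had, and 0 had a p under 0.05, where 8.02% of all genes had. The smallest adjusted p of a member in the authors' deposited table was that of Calr at 0.674. The signs of all 10 log2 fold changes in the authors' deposited table were those of the limma fit. Both rest on the same libraries, so the shared signs add no separate evidence. On the log2 scale 3 members lay above 0 (Hsp90b1, Xbp1 and Eif2ak3, the last with a lower mean RPKM in knockout) and 7 below, and their median was -0.06, while the median of all tested genes was 0.02. The intervals bound what these libraries leave possible. They were narrowest for Calr (0.665 to 1.08 times the wild-type level), Atf4 (0.719 to 1.27 times) and Pdia3, and widest for Ddit3 (0.298 to 2.16 times) and Eif2ak3 (0.361 to 4.16 times). In bulk RNA, fewer cells that express a gene and less RNA per cell cannot be told apart.

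**Figure D3:**
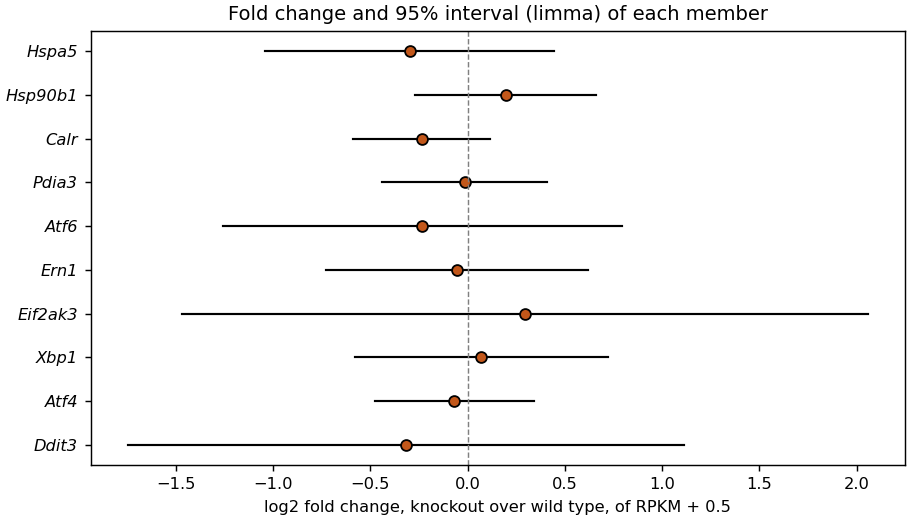
Log2 fold change (knockout relative to wild type) of each member (points) with its 95% interval from limma (lines), on the log2(RPKM + 0.5) scale, 3 libraries per genotype. Every interval includes 0, from -0.59 to 0.11 in Calr to -1.47 to 2.06 in Eif2ak3.

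Some members shared their highest library in each genotype. In wild type replicate 2, 9 of the 10 members were above their own mean over the 6 libraries, and in knockout replicate 2, 7 were. In wild type replicate 3 and in knockout replicate 1, 2 were in each. On the log2 scale, the median deviation of the members was 0.07, 0.19 and -0.24 for wild type replicates 1 to 3, and it was -0.15, 0.14 and -0.10 for the knockout replicates. Over all tested genes it was between -0.02 and 0.05. Replicate 2 was the highest library of both genotypes for Hspa5, Ddit3 and Atf4. Calr, Xbp1 and Eif2ak3 had another highest library in both genotypes.

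Genes outside the set, picked after their values were seen, had the same highest libraries. The stress gene Atf3, another target of ATF4, stood at 3.02, 10.5 and 1.41 RPKM for wild type, against 0.373, 26.6 and 1.73 RPKM for knockout. The immediate-early gene Fos stood at 407, 493 and 129 RPKM for wild type, against 233, 434 and 308 RPKM for knockout. Another immediate-early gene, Egr1, stood at 109, 198 and 41.8 RPKM and at 63.3, 183 and 94.9 RPKM. Wild type replicate 2 and knockout replicate 2 were the highest libraries of their genotype for all 3 genes. The summed level of 9 listed granulocyte markers was likewise highest there, at 174 RPKM in wild type replicate 2 and 307 RPKM in knockout replicate 2, against 17.7 to 70.7 RPKM in the other 4 libraries. The part of these in the levels of the members was not tested, and the labels do not say whether equal numbers mark a shared day.

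**Figure D4:**
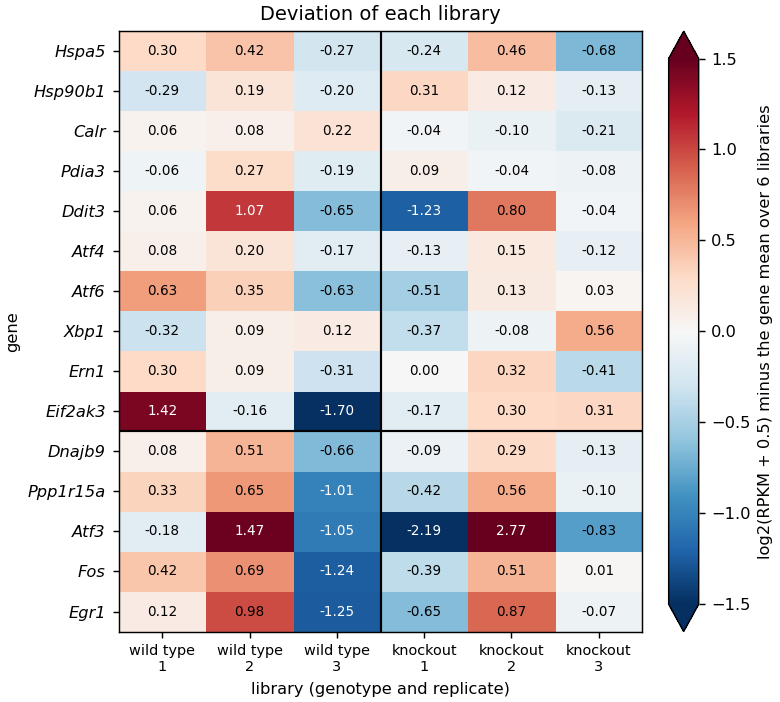
Deviation of each library from the mean of the gene over the 6 libraries, in log2(RPKM + 0.5), for the 10 members (above the line) and 5 other stress-linked genes (below it); red is higher and blue lower. Replicate 2 of both genotypes is red for Hspa5, Ddit3 and Atf4 and for all 5 genes below the line, while wild type replicate 3 and knockout replicate 1 are blue for them.

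Of 65 other genes of the pathway, grouped by role, 64 were listed and 62 passed the filter of 1 RPKM in 3 libraries. In limma 0 of the 62 passed an adjusted p of 0.05, and 0 did by limma-voom or by the adjusted p of the authors' deposited table. An unadjusted p under 0.05 was found for 2 higher and 2 lower genes, where 4.73% and 3.06% of all tested genes had one. The genotypes did not overlap in 5 (8.06%), against 14.5% of all tested genes. Cebpb is among the 2 higher genes and among these 5, and as it passed the filter through the knockout libraries alone, it had to differ. The median log2 fold change of the 62 was -0.03, with 28 above 0 and 34 below.

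The genes of the eIF2alpha arm held the largest differences, 8 of 16 above 0. Asns, the asparagine synthetase gene that ATF4 activates, stood at 8.29, 5.81 and 14.02 RPKM for wild type, against 23.99, 17.8 and 23.4 RPKM for knockout. Every knockout library was above every wild-type library, and the log2 fold change was 1.24 ± 0.35 (standard error; limma adjusted p = 0.481). Cebpb, a bZIP factor gene, had 2, 1 and 14 wild-type reads and 68, 48 and 94 knockout reads (limma adjusted p = 0.559). Ddit4, which encodes an inhibitor of mTORC1 signalling, stood at 23.3, 17.6 and 39.7 RPKM for wild type, against 13.4, 12.8 and 12.7 RPKM for knockout, a log2 fold change of -0.94 (limma adjusted p = 0.560). These 3 genes were the ones of this arm without overlap, and they went in both directions. They made up 18.75% of its tested genes, against 14.5% of all tested genes, and Cebpb had to differ, as said above.

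Ppp1r15a encodes GADD34, which brings about the removal of the phosphate from eIF2alpha. It stood at 82.4, 103 and 32.2 RPKM for wild type, against 49.0, 96.6 and 61.0 RPKM for knockout, and its log2 fold change was 0.02 (limma adjusted p = 0.994). Its libraries were in the same order as those of Fos. Trib3, a pseudokinase gene downstream of ATF4, did not pass the filter, at 3.57, 0.0292 and 5.25 RPKM for wild type, against 0.0270, 0.941 and 0 RPKM for knockout. It was thus above 1 RPKM in 2 libraries, wild type replicates 1 and 3.

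In the IRE1 and ATF6 arms, 7 of 15 genes lay above 0, with a median of -0.03. Creb3l2, which encodes an ER-anchored factor related to ATF6, stood at 10.2, 12.2 and 16.9 RPKM for wild type, against 6.18, 8.03 and 5.52 RPKM for knockout. The genotypes did not overlap, and its log2 fold change was -0.93 ± 0.31 (standard error; limma adjusted p = 0.567). Dnajb9, a BiP cochaperone gene driven by XBP1, went from 44.8 ± 17.3 to 44.3 ± 7.44 RPKM, so the means were close and the libraries spread. The translocon gene Ssr3 had a log2 fold change of 0.34 (limma adjusted p = 0.752).

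In the ER folding group, 6 of 16 genes lay above 0 and the median was -0.13. Canx, the membrane-bound partner of calreticulin, went from 121 ± 9.32 to 119 ± 16.6 RPKM. Manf, the gene of a secreted ER protein, stood at 15.8, 17.98 and 19.8 RPKM for wild type, against 20.5, 28.7 and 21.4 RPKM for knockout. It was the only gene of this group without overlap, at a log2 fold change of 0.38 (limma adjusted p = 0.743). The disulfide isomerase genes Pdia4 and Pdia6 stood at 0.12 and -0.11 on the log2 scale (limma adjusted p = 0.939 and 0.907). Hyou1 and Sdf2l1, which encode a chaperone and a BiP-linked protein, were at -0.15 and -0.36 (limma adjusted p = 0.953 and 0.890), and both were lowest in knockout replicate 3, at 6.40 and 5.17 RPKM.

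In ER-associated degradation, 7 of 15 genes lay above 0 and the genotypes overlapped in all 15. Vcp, the ATPase that pulls proteins out of the ER, had a log2 fold change of 0.37 (limma adjusted p = 0.701). The ubiquitin ligase gene Rnf5 stood at -0.37 (limma adjusted p = 0.743) and Herpud1, which encodes a membrane component of the machinery, at -0.40 (limma adjusted p = 0.763). Sel1l, the scaffold of the degradation complex, went from 15.9 ± 3.31 to 15.7 ± 1.93 RPKM.

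**Figure D5:**
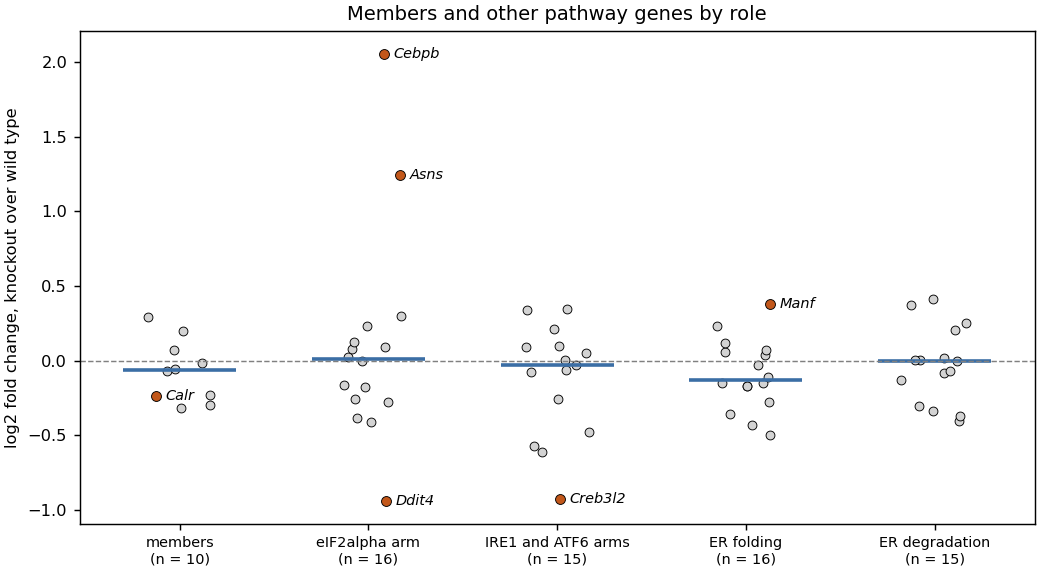
Log2 fold change (knockout relative to wild type) of the members and the other tested pathway genes by role, 1 point per gene, with a bar at the median of each group. Orange points with names are genes whose 3 wild-type and 3 knockout values do not overlap, and the medians lie between -0.13 and 0.01.

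The ER stress response element was also present in 5 of the 52 other pathway genes with a promoter window: Canx, Dnajc3, Creld2, Pdia6 and Syvn1. Over the whole table, 16 tested genes had the element in a window, Hspa5, Hsp90b1, Calr and these 5 among them. Their median log2 fold change was -0.15, with 4 above 0 and 12 below. Of the pathway genes among the 16, only Hsp90b1 lay above 0, and these genes are already counted in the groups above. The 8424 tested genes with a window had a median of 0.02, with 4356 above 0 and 4068 below. The difference was not tested. In limma 0 of the 16 passed an adjusted p of 0.05, as did 0 of the 8424. An unadjusted p under 0.05 was found for 0 of the 16 and for 621 of the 8424.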

How the data were processed

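RNA was sequenced in 6 libraries, 3 per genotype. Subread, featureCounts, edgeR, limma and the mm10 build are named in the submitters' processing notes, and their settings and versions are not given in the sources used here. Per library, the deposited values are RPKM, a unit found from the values: times the exonic gene length of GENCODE M21 (GRCm38), 71.8% of the 15465 genes that have such a length came out as whole reads in every library, within 0.02 reads (73.4% to 75.3% of values per library). All members but Atf4, whose reads are estimates, were whole. The library kit amplifies RNA, so reads are not independent molecules. The authors' deposited log2 fold changes and p-values come from a test that is not named.

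limma 3.58.1 in R 4.3.3 was fitted to log2(RPKM + 0.5) of the 13179 genes that reached 1 RPKM in 3 or more libraries, using a variance trend and Benjamini-Hochberg adjustment at 0.05 over all of them. This scale understates changes of low genes. The fit was also run on simulated data. The changes set there were larger than that of any member, so the run does not show that smaller ones would be found. Members and gene lists were chosen with earlier results of these data known. Named genes are the members, 12 fixed pathway genes and the 6 others with the smallest p. Alternatives were the pseudocount, the filter, quantile normalization, no trend, a replicate block, limma-voom on recovered reads and leaving out each library. Deviations of same-numbered libraries correlated weakly across genes (0.0152, 0.0593 and 0.0467), so they were not treated as pairs. Coordinates are those of M21, and promoters those of RefSeq.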

Additional observations from a re-analysis of the deposited data

How the results depend on the processing

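In every alternative run, 0 members and 0 other pathway genes passed an adjusted p of 0.05; the smallest adjusted p of a member over all of them was 0.666 (Hsp90b1 without wild type replicate 2). The number of genes called over the whole table was 8 in limma-voom and ranged from 0 to 1 without each library in turn, with 1 without wild type replicate 1 and 1 without wild type replicate 2. With the replicate block, which pairs libraries by number alone, it was 0 and the smallest adjusted p of a member was 0.700. Wild type replicates 2 and 3 correlated best with the knockout library of their own number (0.0593 and 0.0467) and wild type replicate 1 with knockout replicate 2 (0.0353, against 0.0152 with its own). The correlations were low, and the numbers were not taken as pairs. The median of the members ranged from -0.21 to 0.06 without each library and that of the other pathway genes from -0.15 to 0.037.

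Pseudocounts turned no sign. The filters, the trend and the block leave the log2 fold change of each fitted gene as it was, so they could not turn one. Quantile normalization gave Ppp1r15a -0.0090 and limma-voom gave Sel1l -0.010. Leaving out 1 library turned 7 members. Their lowest and highest log2 fold changes were -0.11 and 0.12 for Pdia3, -0.79 and 0.22 for Ddit3, -0.17 and 0.013 for Atf4, -0.61 and 0.023 for Atf6, -0.19 and 0.27 for Xbp1, -0.23 and 0.13 for Ern1 and -0.48 and 1.07 for Eif2ak3. They were -0.27 and 0.32 for Dnajb9, -0.46 and 0.35 for Hyou1, -0.11 and 0.31 for Pdia4, -0.14 and 0.033 for Canx, -0.63 and 0.17 for Sdf2l1, -0.48 and 0.35 for Ppp1r15a and -0.18 and 0.11 for Sel1l. The causes were not tested. Hspa5, Hsp90b1, Herpud1, Pdia6, Vcp, Rnf5 and Ssr3 kept their sign in all alternatives. Calr, Asns, Cebpb, Ddit4, Creb3l2 and Manf did so too. As their genotypes do not overlap, leaving out a library could not turn these. The filter at 5 RPKM left out Eif2ak3 and Cebpb, and Cebpb could not be fitted without a knockout library. The members with the fewest reads were Ddit3, at 105 to 531 per library, and Eif2ak3, at 76 to 871.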
